A study of Mus musculus with 20 samples.

Results

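Dntt, Cnga3, Rbmy and Chil4 are 4 genes whose products belong to other organs, and all 4 were found in the kidneys of mice given puberulic acid. They were chosen by symbol from the 55822 gene identifiers of the count table because their transcripts were at or near 0 in control kidneys and plentiful with puberulic acid. Their levels in these groups are therefore given as a description, with no test. The study measured poly(A)-selected RNA of whole kidney in 8-week-old male C57BL/6J mice given 6 daily doses, with kidneys taken on day 7. The control group (n = 5) received phosphate-buffered saline (PBS), and the puberulic acid group (n = 5) received 1 mg of the compound per day, a tropolone made by Penicillium moulds. The labels allow both gavage and injection into the peritoneum, so the route given to each mouse is not known. A further 10 libraries are from mice given a normal or a toxic lot of the supplement Choleste-Help at 1000 mg per day. The names of their columns do not show the lot, and they were not analysed here.

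The 4 genes have unrelated roles. Dntt encodes terminal deoxynucleotidyl transferase, a DNA polymerase that adds nucleotides without a template where antigen receptor genes are joined in early B and T cells. Cnga3 encodes the pore-forming subunit of the cyclic nucleotide gated cation channel of cone photoreceptors, where it normally assembles with the product of Cngb3. Rbmy is a Y-linked gene for an RNA-binding protein of male germ cells and is present in many near-identical copies. Chil4 (also called Ym2) encodes a secreted chitinase-like protein that lacks enzyme activity and is known from type 2 immune responses of the lung and stomach, and Chil3 (Ym1), a macrophage product, is its closest relative.

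The starts of the 4 genes are shown because the genes were low and high in the same libraries, and a reader can compare the letters that lie in front of them. Each line gives the 250 bases before the transcription start in RefSeq, 5′ to 3′ on the strand of the gene. Capitals mark matches to the motifs searched on either strand, which do not overlap here. The TATA motif was read as the letters TATAAA, and the CCAAT box has its letters as its name. The AP-1 site was searched with TGANTCA, the cyclic AMP response element with TGACGTCA and the GC box with GGGCGG. The STAT site was searched with TTCNNNGAA, and the STAT6 site is the same with 4 bases in place of 3 in its middle. The coordinates are those of GRCm38.p6, whereas the submitters' processing notes name GRCm39, and the deposited counts do not show which start was used.
Dntt (GRCm38.p6, chr19:41029025-41029274, plus strand): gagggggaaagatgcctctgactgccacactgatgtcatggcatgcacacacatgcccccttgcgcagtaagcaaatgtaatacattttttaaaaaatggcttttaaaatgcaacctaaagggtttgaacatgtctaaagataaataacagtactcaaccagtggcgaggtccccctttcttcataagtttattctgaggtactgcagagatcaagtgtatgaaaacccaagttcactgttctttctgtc
Cnga3 (GRCm38.p6, chr1:37218028-37218277, plus strand): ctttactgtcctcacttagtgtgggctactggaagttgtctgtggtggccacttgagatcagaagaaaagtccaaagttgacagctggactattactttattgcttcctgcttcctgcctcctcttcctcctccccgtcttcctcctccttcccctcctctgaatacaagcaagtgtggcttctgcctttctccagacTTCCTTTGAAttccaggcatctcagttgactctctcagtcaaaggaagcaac
Rbmy (GRCm38.p6, chrY:2830430-2830679, plus strand): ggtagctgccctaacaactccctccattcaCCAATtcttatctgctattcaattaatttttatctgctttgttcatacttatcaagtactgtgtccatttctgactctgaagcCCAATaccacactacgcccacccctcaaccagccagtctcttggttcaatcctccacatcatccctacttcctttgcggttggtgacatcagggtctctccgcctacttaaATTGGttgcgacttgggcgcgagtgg
Chil4 (GRCm38.p6, chr3:106219480-106219729, minus strand): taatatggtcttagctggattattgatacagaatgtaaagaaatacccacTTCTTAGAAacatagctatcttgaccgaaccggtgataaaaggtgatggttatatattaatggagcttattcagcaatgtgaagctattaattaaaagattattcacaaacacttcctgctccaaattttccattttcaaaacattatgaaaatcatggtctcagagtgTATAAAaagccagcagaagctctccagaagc

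The 4 sequences shared no motif of the 7. The Dntt window held none of them. Chil4 had a TATA box whose first base lay at position -31 from the start (-1 being the last base before it), and 12.4% of the 32851 RefSeq windows of this length hold a TATA box. It also had a STAT match at -200, as did 7.02% of the windows. Rbmy had 3 CCAAT matches, at -220, -137 and -26, where 33.9% of the windows have at least 1. Cnga3 had a STAT6 match at -52, found in 5.85% of the windows. A second RefSeq start of Cnga3, whose sequence is not shown, had a TATA match at -122. The GC content of the printed windows was 41.6% for Dntt, 48.8% for Cnga3, 47.2% for Rbmy and 34.0% for Chil4. A match of letters is a description, and no match says only that those letters are not in the window.

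Total estimated counts ran from 18409877 to 22725274 in the control libraries and from 19897287 to 24705587 with puberulic acid. Values below are CPM, the usual depth-scaled counts, on library sizes scaled by trimmed mean of M-values (TMM), where 3 counts correspond to 0.158 to 0.195 CPM in controls and 0.0964 to 0.128 CPM with puberulic acid. The libraries carried the markers of kidney. Of 10 such markers all were tested and 6 were called lower (Nphs1, Lrp2, Slc12a3, Slc12a1, Aqp2 and Cdh16), where 31.1% of all genes tested were lower. With total-count scaling 3 of the 6 (Lrp2, Aqp2 and Cdh16) were called lower, and Umod and Pax8 higher. That scaling called 9179 of all 16266 genes tested higher and 2526 lower. In the 10 fits without 1 library, the call for Slc12a1 was lost in 7 and that for Nphs1 in 4, and the other 4 calls held. Umod, the loop of Henle glycoprotein, averaged 3335 CPM in control libraries and 3476 CPM in puberulic acid libraries. Lrp2 (megalin, the endocytic receptor of the proximal tubule) fell from 1332 ± 144 to 145.3 ± 58.7 CPM (± SD of 5 libraries each). Havcr1, the tubular injury molecule KIM-1, ranged from 1.62 to 2.61 CPM in controls and from 1089 to 1343 CPM in puberulic acid libraries. Krt20, a keratin of injured tubules, averaged 0.200 CPM and 414.9 CPM in the 2 groups. Puberulic acid replicate 1 kept the most Lrp2 of its group, at 242.0 CPM against 96.2 to 157.9 CPM in the other 4 libraries. In whole tissue, a change in the number of cells of a type and a change in RNA per cell cannot be told apart. The labels do not say that each library is from a separate mouse, so p-values measure the spread between these libraries.

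**Figure D1:**
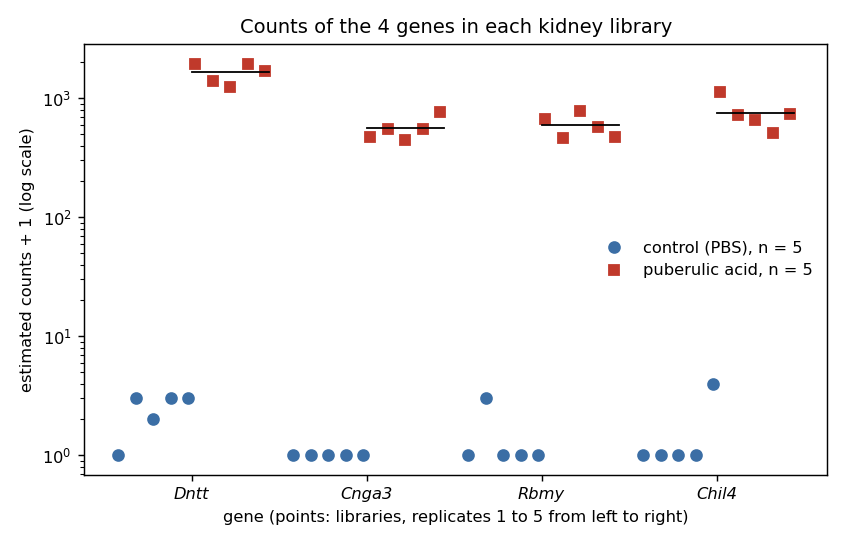
Estimated counts + 1 (log scale) of Dntt, Cnga3, Rbmy and Chil4 in each of the 5 control and 5 puberulic acid libraries; the black line is the mean with puberulic acid. Control libraries hold 0 to 3 counts of each gene and puberulic acid libraries 443 to 1955.

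Dntt had the highest level per transcript length of the 4, with Rbmy taken without its copies, as given below. Control replicates 1 to 5 held 0, 2, 1, 2 and 2 counts, and puberulic acid replicates 1 to 5 held 1955, 1407, 1231, 1947 and 1701 counts. The groups did not overlap, here and for the other 3 genes. Ranges that do not overlap in the higher direction were found for 26.1% of the genes tested, and nothing is read from this count for genes chosen by it. In CPM the puberulic acid libraries were at 72.6, 59.9, 52.1, 79.3 and 54.7, a mean of 63.7 ± 11.8 CPM (SD, n = 5), so that replicates 1 and 4 were the highest and the highest library was 1.52 times the lowest. The controls had a mean of 0.0847 ± 0.0540 CPM (SD, n = 5). The ratio of the summed counts, 8241 against 7 and corrected for library size, was 759, with a 95% exact binomial interval of 368 to 1889 that covers counting error alone. With puberulic acid the level of Dntt lay above that of 84.1% of all genes tested.

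Cnga3 was at 0 counts in all 5 control libraries. Puberulic acid replicates 1 to 5 held 470, 548, 443, 551 and 767 counts, which is 17.4, 23.3, 18.8, 22.5 and 24.6 CPM. Replicates 1 and 3 were the lowest and replicate 5 the highest. The mean of 21.3 ± 3.08 CPM (SD, n = 5) was at least 118-fold higher than a floor set at 3 counts per library (0.180 CPM on average). The spread was the smallest of the 4 genes, with a coefficient of variation of 14.4% against 18.4% for Dntt, 28.2% for Chil4 and 28.3% for Rbmy.

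Rbmy had 2 counts in control replicate 2 and 0 in the other 4 controls. Puberulic acid replicates 1 to 5 held 668, 459, 774, 571 and 474 counts, or 24.8, 19.6, 32.8, 23.3 and 15.2 CPM. The mean was 23.1 ± 6.54 CPM (SD, n = 5), and the highest library, replicate 3, was 2.15 times the lowest, replicate 5. The ratio of summed counts, 2946 against 2, was 950 (95% exact binomial interval 263 to 7849). These values rest on how reads were divided among copies of the gene, which is taken up below.

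Chil4 had 3 counts in control replicate 5 and 0 in the other 4 controls. Puberulic acid replicates 1 to 5 held 1127, 718, 659, 505 and 739 counts, or 41.8, 30.6, 27.9, 20.6 and 23.7 CPM. The mean was 28.9 ± 8.17 CPM (SD, n = 5). Replicate 1, the library that kept the most Lrp2, was the highest for Chil4 and the lowest for Cnga3. The ratio of summed counts, 3748 against 3, was 806 (95% exact binomial interval 276 to 3909).

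To compare levels between the genes, the mean with puberulic acid was divided by transcript length. Per kilobase of the longest GENCODE M21 transcript, the mean levels were 29.9 CPM per kb for Dntt, 18.8 for Chil4, 13.5 for Rbmy and 6.00 for Cnga3. The order of the means was the same without the correction for length. The libraries did not rank alike for the 4 genes: the highest was replicate 4 for Dntt, replicate 5 for Cnga3, replicate 3 for Rbmy and replicate 1 for Chil4. Without replicate 1 the means were 61.5 ± 12.3 CPM for Dntt, 22.3 ± 2.52 for Cnga3, 22.7 ± 7.48 for Rbmy and 25.7 ± 4.43 for Chil4 (SD, n = 4).

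All 4 genes passed the filter on low counts, each through the puberulic acid libraries, and all 4 were called higher by edgeR's quasi-likelihood test, as were 34.2% of the 16266 genes tested. The choice of the genes fixed that outcome and nothing is read from it. A narrower description uses the counts: 45 genes, or 0.277% of those tested, had at most 3 counts in every control library and at least 100 in every puberulic acid library. Ranked by mean CPM with puberulic acid, Dntt was number 2 of these 45, Chil4 number 10, Rbmy number 11 and Cnga3 number 13. The gene above Dntt was Il1rn, the interleukin-1 receptor antagonist, at 128.2 CPM, and the gene just below it was Fosl1, a subunit of AP-1, at 63.2 CPM. The gene at the lower edge of the 45 was Rbp7 at 4.32 CPM. Of the 45, 13 are numbered or Riken models without a gene name of their own.

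**Figure D2:**
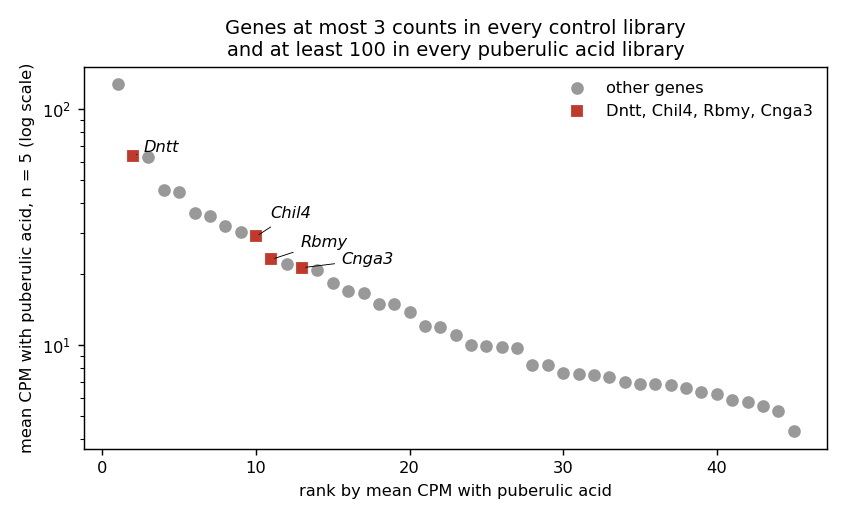
Mean CPM with puberulic acid (log scale, n = 5) against rank for the 45 genes with at most 3 counts in every control library and at least 100 in every puberulic acid library. Dntt is at rank 2 with 63.7 CPM, and Chil4, Rbmy and Cnga3 are at ranks 10, 11 and 13 between 21.3 and 28.9 CPM.

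Of the genes next to the 4 along the chromosome, few were expressed enough to be tested. In the RefSeq order, Dntt is followed by Opalin and Tll2, which had 0 counts and 1 count over all 10 libraries. Blnk, which encodes a B cell adaptor protein and is the nearest protein-coding gene before Dntt, was already expressed in controls at 22.6 ± 2.63 CPM and rose to 75.2 ± 6.10 CPM (± SD of 5 libraries each), with a log2 fold change of 1.73 ± 0.10 (SE, edgeR adjusted p = 5.21e-08). Around Cnga3, Gm37020 and 4930439A04Rik had 0 counts in all 10 libraries. Inpp4a, the next protein-coding gene after Cnga3, averaged 7.49 CPM without and 8.13 CPM with the compound, a log2 fold change of 0.12 ± 0.13 (SE, edgeR adjusted p = 0.43), which scaling to total counts moved to 0.63 (edgeR adjusted p = 0.00139). Across the 24 neighbours listed (3 on each side of each gene), 21 were in the table and 6 were tested. The 3 called higher, where 34.2% of all genes tested were, were Blnk, the Rbmy copy Gm4064 and Chil3, the closest relative of Chil4. Gm4064 had 0 counts in every control library and Chil3 at most 9. Both passed the filter through the puberulic acid libraries, so nothing is read from the 3 of 6.

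**Figure D3:**
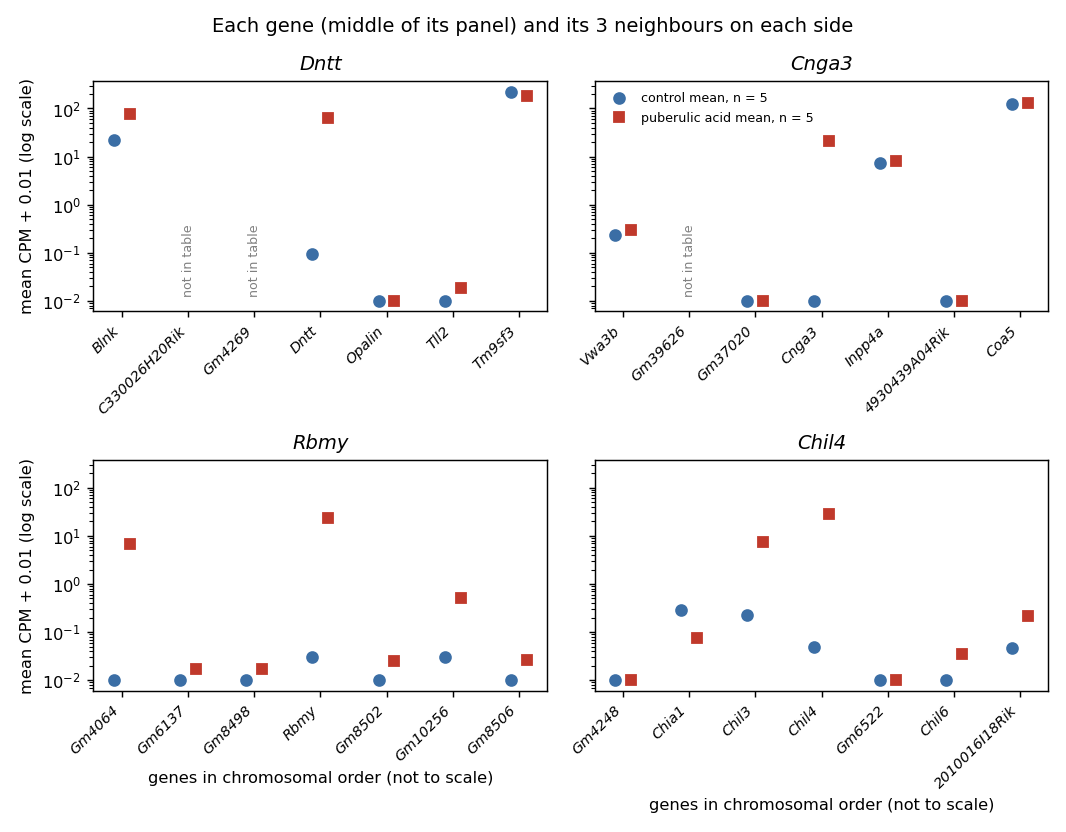
Mean CPM + 0.01 (log scale) in control (circles) and puberulic acid (squares) kidneys, n = 5 each, for each of the 4 genes and the 3 genes listed on each side of it in RefSeq. Opalin and Tll2 stay at the bottom beside Dntt, and Inpp4a, at 7.49 and 8.13 CPM, has nearly the same mean in both groups beside Cnga3.

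How far reads of each gene can be told from those of others was examined with stretches of 31 bases taken from its GENCODE M21 transcripts. For Dntt all 2290 such stretches occur in no other annotated gene. For Cnga3 98.7% of 3956 and for Chil4 80.8% of 2786 occur in no other gene. For Rbmy none of the 1727 does: each is found in another Y-linked gene model, and 8 such models share 82.3% to 100% of them. The coding sequence of Rbmy differs from those of Gm21704, Gm21677 and Gm10352 at 1 of 1140 bases and from that of Gm3376 at 4. The 250 bases before the start, printed above, are identical in Rbmy and these 4 copies. The value of Rbmy alone is therefore uncertain, and the sum with these 8 models depends less on how reads were divided. Another model, Gm29289, shares 29.8% of the stretches and is not in the sum.

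The sum of Rbmy and its 8 copies, formed after the values were seen, was 210.3, 157.1, 156.6, 147.4 and 121.2 CPM in puberulic acid replicates 1 to 5. The mean was 158.5 ± 32.4 CPM (SD, n = 5), and its coefficient of variation of 20.4% was below that of Rbmy alone. In the control libraries the sum was 0, 4, 0, 0 and 3 counts, a mean of 0.0811 ± 0.111 CPM (SD, n = 5). The ratio of summed counts was 1884 (95% exact binomial interval 914 to 4686). Rbmy itself took 11.8% to 20.9% of the counts of the sum. The copies with the highest means with puberulic acid were Gm21704 at 44.6 ± 8.94, Gm21677 at 35.4 ± 10.9 and Gm10352 at 31.9 ± 12.9 CPM (SD, n = 5 each), all with 0 counts in every control library. Gm21708, whose transcripts hold every stretch of Rbmy, was listed at 0 in all 10 libraries. Of the 9 genes, 6 had at least 100 counts in every puberulic acid library.

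**Figure D4:**
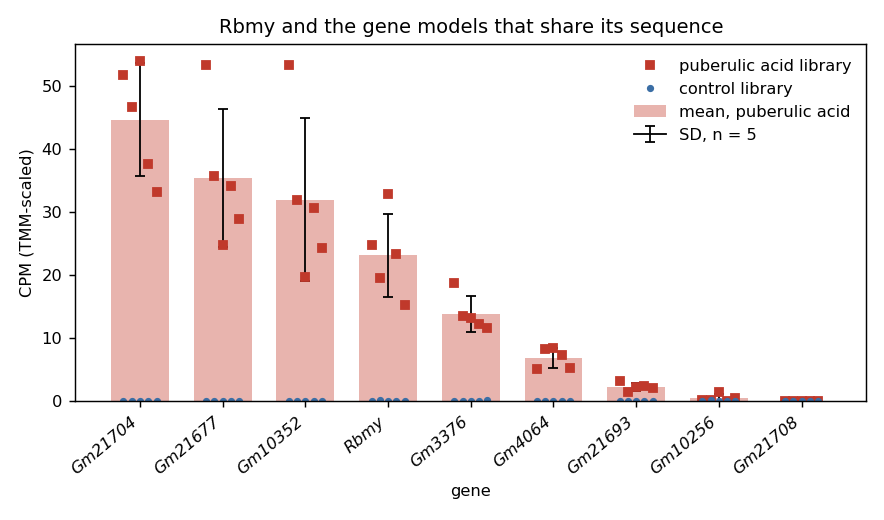
CPM of Rbmy and of 8 Y-linked gene models that share its sequence, with bars for the mean and error bars for the SD of the 5 puberulic acid libraries (squares) and circles for the 5 control libraries. Gm21704 is highest at 44.6 CPM, Rbmy has 23.1 CPM, and all control libraries lie near 0.

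No Y-linked gene of a list of 9 outside the Rbmy copies was called higher. Of the 9, 5 (Usp9y, Zfy1, Zfy2, Uba1y and Sry) had at most 3 counts in each library. Of the 4 tested, 3 were called lower, where 31.1% of all genes tested were lower, and the median log2 fold change of the 4 was -0.47 against 0.05 for all genes tested. Ddx3y, an RNA helicase gene, fell from 57.0 ± 7.06 to 31.7 ± 2.95 CPM (± SD of 5 libraries each), with a log2 fold change of -0.85 ± 0.10 (SE, edgeR adjusted p = 1.52e-05). The log2 fold changes were -0.58 for Eif2s3y and -0.35 for Uty. Scaling to total counts, which moves the median of all genes to 0.56, left 1 of the 3 calls: Ddx3y was then at -0.34, Eif2s3y at -0.08, and Uty turned to 0.16. The call for Uty was also lost without puberulic acid replicate 3, and that for Kdm5d (-0.30) was gained without control replicate 4 and without puberulic acid replicate 1.

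Relatives of Rbmy elsewhere in the genome, such as Rbmx and Rbmxl1, were listed together with other splicing factors, such as Tra2a and Srsf7. Of 8 listed, Rbmxl2, the testis relative, had 3 counts over all controls and 4 over all puberulic acid libraries. Among the 7 tested, 6 were called higher, against 34.2% of all genes tested, and the median log2 fold change of the 7 was 0.79, against 0.05 for all genes. Rbmx2 rose from 2.80 ± 0.608 to 6.51 ± 1.34 CPM and Rbmxl1 from 23.0 ± 1.61 to 44.1 ± 9.93 CPM (± SD of 5 libraries each). Tra2a and Srsf7, both splicing regulators, had log2 fold changes of 0.94 ± 0.19 and 0.79 ± 0.17 (SE, edgeR adjusted p = 0.000782 and 0.0015). Rbmx, the X-linked counterpart of Rbmy, had a log2 fold change of -0.15 ± 0.08 (SE, edgeR adjusted p = 0.108), which became 0.36 with total-count scaling (edgeR adjusted p = 0.00122). It was called lower without puberulic acid replicate 4.

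The genes of the recombinase that Dntt works with stayed near 0. Rag1 and Rag2, whose products cut antigen receptor genes, had 0 counts in controls, and with puberulic acid Rag1 had 5 counts over 5 libraries and Rag2 had 0. Of 13 genes of V(D)J recombination and end joining, 11 were tested, 1 was called higher and 3 lower, with a median log2 fold change of -0.16. Over all genes tested 34.2% were higher and 31.1% lower, with a median of 0.05, so the 3 of 11 are near the share of all genes. Polb, a repair polymerase of the same family as Dntt, rose by a log2 fold change of 0.58 ± 0.09 (SE, edgeR adjusted p = 0.000131). Prkdc and Xrcc5, which encode parts of the DNA-dependent protein kinase, had log2 fold changes of -0.80 and -0.72, and Poll, another polymerase of the family, of -0.61. Polm, the closest relative of Dntt, averaged 8.39 ± 2.61 CPM in controls and 8.18 ± 1.31 CPM in the treated group (± SD of 5 libraries each; edgeR adjusted p = 0.885). With total-count scaling 5 of these 11 genes were called higher (Dclre1c, Xrcc6, Lig4, Paxx and Polb) and 2 lower, Poll being at -0.10. That scaling called 9179 of all 16266 genes tested higher and 2526 lower, with a median log2 fold change of 0.56.

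Markers of lymphoid cells were low, and some were higher with puberulic acid. Of 11 genes of early lymphoid progenitors and thymocytes, 5 were tested and 4 were called higher (Cd1d1, Il7r, Flt3 and Ebf1), against 34.2% of all genes tested. The summed level of the 11 was 6.64 to 8.40 CPM in controls and 13.4 to 22.2 CPM with puberulic acid. Among the genes that define these cells, Rag2 and Vpreb2 were at 0 in all libraries, Igll1 had 7 counts over the controls and 1 over the puberulic acid libraries, and Ptcra had 6 and 43, which was called higher with no filter on low counts (edgeR adjusted p = 0.0288). Vpreb1, of the surrogate light chain of pre-B cells, had 104 counts over the controls and 120 over the puberulic acid libraries, a log2 fold change of -0.45 (edgeR adjusted p = 0.328). Of 12 markers of mature T and B lymphocytes, 9 were tested and 5, all of T cells (Cd3d, Cd4, Cd8b1, Trac and Trbc2), were called higher, against 34.2% of all genes tested. The call for Cd8b1 (edgeR adjusted p = 0.0489) was lost with RLE scaling, with no filter, with DESeq2 and in 7 of the 10 fits without 1 library (control replicates 2, 3, 4 and 5 and puberulic acid replicates 1, 4 and 5). Without control replicate 4, puberulic acid replicate 1 or puberulic acid replicate 5, 3 genes (Cd3d, Cd4 and Trbc2) were called. The summed level of all 12 was 5.97 to 10.6 CPM in controls and 8.48 to 21.7 CPM with puberulic acid. The part of lymphocytes in the level of Dntt was not tested.

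The channel partners of Cnga3 stayed near 0. Cngb3, which encodes the cone subunit that pairs with it, had 0 counts in all 10 libraries. Cnga1, of the rod channel, had 6 counts over the puberulic acid libraries and 0 over the controls. Cnga2 and Cnga4, of the olfactory channel, and Cngb1 had 15, 6 and 36 counts over the controls and 1, 15 and 56 over the puberulic acid libraries. All 15 control counts of Cnga2 were in replicate 4, and 20 of the 36 of Cngb1 were in replicate 2. None of these 5 genes passed the filter on low counts.

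Other genes of the photoreceptor were in part detected. Of 13 phototransduction genes, 5 were tested and 3 were called higher, against 34.2% of all genes tested. The median log2 fold change of the 5 was 1.00, against 0.05 for all genes. Sag, the arrestin of rods, rose from 0.472 ± 0.185 to 2.84 ± 1.25 CPM (± SD of 5 libraries each), with a log2 fold change of 2.58 ± 0.40 (SE, edgeR adjusted p = 0.00012). Guca1a, a guanylate cyclase activator, and Gngt2, a G protein subunit of cones, had log2 fold changes of 1.72 and 0.76. Sag and Guca1a had at most 12 and 10 counts in a control library and passed the filter on low counts through the puberulic acid libraries. This favoured a call as higher, so nothing is read from the 3 of 5 or from their median. The call for Gngt2 was lost without puberulic acid replicate 3 and without puberulic acid replicate 5. The cone-defining genes Arr3, Opn1mw and Pde6c and the photoreceptor gene Rcvrn had 0 counts in all 10 libraries, and Opn1sw had 1 count over the controls and 5 over the puberulic acid libraries. Other cone genes were detected in both groups: Pde6h, a cone phosphodiesterase subunit, had 126 counts over the controls, 100 of them in replicate 4, and 104 over the puberulic acid libraries. Gnat2, the cone transducin, had 25 and 40. The summed level of 12 photoreceptor markers was 1.48 to 8.79 CPM in controls and 3.19 to 8.09 CPM with puberulic acid, so the ranges overlapped. Without Pde6h, left out after its values were seen, the sums were 1.48 to 2.55 CPM and 3.15 to 7.16 CPM and did not overlap. Nothing is read from this, because the marker was dropped for its values. Sag alone averaged 2.84 CPM with puberulic acid. Of all genes tested, 26.1% had ranges that did not overlap in the higher direction. The part of photoreceptors in the level of Cnga3 was not tested.

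Markers of male germ cells were low or at 0. Of 11 markers, 7 had at most 3 counts in each library, and Tnp1, Prm1, Tex101 and Acrv1 had 0 in all 10 libraries. Ddx4, the germ cell helicase, had 29 counts over the controls and 54 over the puberulic acid libraries, and Dazl had 3 and 18. Of the 2 tested, Zbtb16, which is also expressed outside germ cells, was called higher, where 34.2% of all genes tested were (log2 fold change 1.43 ± 0.49, SE, edgeR adjusted p = 0.022). This call was lost without puberulic acid replicate 1 and without puberulic acid replicate 3, and Sycp3 was called higher besides it without control replicate 4. The summed level of the 11 was 1.11 to 5.00 CPM in controls and 4.40 to 10.7 CPM with puberulic acid. The part of germ cells in the level of Rbmy was not tested.

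Chil4 has a close copy in the table. Its coding sequence of 1206 bases is 94.4% identical to the 1194 bases of Chil3 (55 mismatches and 12 gap positions), and 470 of its 2786 stretches of 31 bases also occur in Chil3. The 60 coding bases where they differ most, numbered from the first base of the start codon in GENCODE M21, show what separates their reads. Capitals mark the 10 differing bases.
Chil4 (coding bases 500 to 559): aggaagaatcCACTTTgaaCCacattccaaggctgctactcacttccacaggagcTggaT
Chil3 (coding bases 500 to 559): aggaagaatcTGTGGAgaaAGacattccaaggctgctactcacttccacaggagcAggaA

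Chil3 was lower than Chil4 in every puberulic acid library. Control replicates 1 to 5 had 9, 0, 2, 3 and 4 counts of Chil3, and puberulic acid replicates 1 to 5 had 87, 181, 297, 238 and 135. Its level rose from 0.218 ± 0.191 to 7.51 ± 3.84 CPM (± SD of 5 libraries each), with a log2 fold change of 5.08 ± 0.59 (SE, edgeR adjusted p = 1.36e-05). Chil4 took 92.8%, 79.9%, 68.9%, 68.0% and 84.6% of the counts of the pair in puberulic acid replicates 1 to 5. Replicate 1 was thus the highest for Chil4 and the lowest for Chil3. Both together came to 28.1 to 45.1 CPM with puberulic acid and 0 to 0.514 CPM in controls, a sum that does not depend on how reads were divided between them.

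The remaining members of glycoside hydrolase family 18, to which the chitinases and chitinase-like proteins belong, were low or lower. Of 9 members other than Chil4, 4 were tested, 1 was called higher (Chil3) and 2 lower, where 34.2% of all genes tested were higher and 31.1% lower. Ctbs, a lysosomal chitobiase, fell from 61.7 ± 17.1 to 21.6 ± 2.88 CPM (± SD of 5 libraries each; log2 fold change -1.52, edgeR adjusted p = 1.12e-05). Chid1 had a log2 fold change of -0.44 (edgeR adjusted p = 0.0206), which became 0.07 with total-count scaling, and its call was lost without control replicate 2. Ovgp1 was called higher in both of these settings. Chil5 and Chil6, further chitinase-like genes, had 1 and 3 counts over the puberulic acid libraries and 0 over the controls. Chia1, the acidic chitinase gene near Chil4, had 23 counts over the controls and 9 over the puberulic acid libraries.

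Genes of type 2 immunity, in which Chil4 is best known, differed among themselves. The cytokine genes Il4, Il5, Il13 and Il25 had at most 3 counts in each library. Of 11 genes listed, 5 were tested and all 5 were called higher, against 34.2% of all genes tested. Their median log2 fold change was 1.35, against 0.05 for all genes. Il33, an alarmin cytokine, rose by a log2 fold change of 2.56 ± 0.27 (SE, edgeR adjusted p = 5.95e-06), and Il1rl1, its receptor, rose from 0.357 ± 0.134 to 5.47 ± 4.01 CPM (± SD of 5 libraries each). Il1rl1 was highest in puberulic acid replicate 1, at 12.6 CPM against 2.89 to 4.79 CPM in the other 4, which was also the library with the most Chil4. The other 4 genes tested, Il33, Il4ra, Il13ra1 and Stat6, were each lowest in that library of the 5. Il4ra, the receptor chain for interleukins 4 and 13, rose from 17.8 ± 1.65 to 45.5 ± 4.35 CPM, and Stat6, the factor it signals through, from 61.6 ± 4.22 to 80.7 ± 4.61 CPM (± SD of 5 libraries each).

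Some macrophage markers were higher as well. Of 10 listed, 7 were tested and 5 were called higher, against 34.2% of all genes tested: Cd68, Mrc1, Mgl2, Clec10a and Chil3, which is also in the family list above. The general markers Adgre1 and Csf1r had log2 fold changes of 1.33 and 0.27 and were not called (edgeR adjusted p = 0.0564 and 0.234). Both were called higher with total-count scaling, and Adgre1 also with no filter and without control replicate 4. Without puberulic acid replicate 1 all 8 markers then tested were called higher. The summed level of the 10 was 56.5 to 96.9 CPM in controls and 115.5 to 269.4 CPM with puberulic acid. Mgl2, a lectin of alternatively activated macrophages, rose from 1.93 ± 0.687 to 55.3 ± 22.9 CPM (± SD of 5 libraries each), and in replicate 1, where Chil4 was highest, it was lowest at 22.9 CPM. Retnla had 6 counts over the controls and 18 over the puberulic acid libraries. Of 10 markers of neutrophils and eosinophils, 2 were tested and Cxcr2 was called higher (log2 fold change 1.87 ± 0.28, SE, edgeR adjusted p = 9.62e-05), where 34.2% of all genes tested were. Siglecf had 1 count over the controls and 30 over the puberulic acid libraries and was called higher with no filter (edgeR adjusted p = 0.0104). Their summed level was 0.580 to 1.43 CPM in controls and 1.97 to 3.56 CPM with puberulic acid, and Ly6g, Elane and Prg2 were at 0. The part of these cells in the level of Chil4 was not tested.

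Other tissue-restricted genes on a chosen list were mostly too low to be tested. Of 20 genes typical of testis, ovary, liver, muscle, pancreas, brain, skin, thyroid and lung, 10 had at most 3 counts in each library, and 5 of these (Prm1, Tnp1, Myh4, Krtap3-1 and Sftpc) were at 0 throughout. The pancreas enzyme genes Cpa1, Cela2a and Pnlip had 8, 13 and 9 counts in control replicate 2, 4, 10 and 11 counts in puberulic acid replicate 2, and 0 in the other 8 libraries. Dntt, Cnga3, Rbmy and Chil4 had at least 443 counts in each puberulic acid library and at most 3 in each control. They were chosen for such counts, so nothing is read from the difference to the list. The list does not stand for all tissue-restricted genes. The 45 genes ranked above also hold Xirp2, a gene of muscle, at 14.9 CPM with puberulic acid and Casp14, a gene of skin, at 5.84 CPM. Of the 3 listed genes that were tested, Alb and Apoa2, typical of liver, were called lower, where 31.1% of all genes tested were, with log2 fold changes of -0.59 and -1.39. The call for Alb was lost with total-count scaling, with no filter and without any of control replicates 2, 3 and 4 and puberulic acid replicates 2, 3 and 4. With no filter on low counts, Acta1 (2 counts over the controls, 51 over the puberulic acid libraries) and Gfap (5 and 60) were called higher.

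Genes with a profile like that of each member were sought among 169 genes that were at most 3 counts in every control library and at least 1 CPM on average with puberulic acid. Likeness was the root mean square difference over the 10 libraries between profiles divided by their mean with puberulic acid, so that 0 would be an identical profile. Cnga3 had the closest match, with Il1rn at 0.0474, followed by Xirp2, a muscle actin-binding protein gene, at 0.0494 and Rnf223 at 0.0506. For Rbmy the nearest were Aloxe3 at 0.0971 and Ivl at 0.0975, both of the skin barrier, and BC061237 at 0.127. For Dntt they were Olfr1415 at 0.0745, Gml2 at 0.0963 and Casp14, a caspase of the skin, at 0.0981. For Chil4 they were Mybpc2, a muscle myosin-binding protein gene, at 0.0920, the clone-named AC169509.1 at 0.0935 and the potassium channel gene Kcnj14 at 0.112. Between the 4 members the difference ran from 0.160 for Dntt and Cnga3 to 0.258 for Cnga3 and Rbmy. The genes named were the nearest found among 169, so nothing is read from the members being farther apart. All candidates were near 0 in controls by selection, so likeness rests on the puberulic acid libraries. Olfr1415, Gml2 and Kcnj14 had far fewer counts there than the members, and counting error was not taken into account. Without puberulic acid replicate 1, 2 of the 3 genes remained for Cnga3 and for Rbmy and 0 of the 3 for Dntt and for Chil4.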

How the data were processed

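Poly(A)-selected, strand-specific libraries of whole kidney were made per the labels' protocols. The authors deposited estimated counts for each gene, with decimals and without normalization. Per the submitters' processing notes fastp 0.22.0, FastQC 0.12.1, MultiQC 1.28, Salmon 1.10.3, DESeq2 and GRCm39 were used, with no role stated. The annotation and the strand setting are not given in the sources used here. Columns were matched to 5 control and 5 puberulic acid samples by name; 10 columns whose names match either supplement lot were not used. Symbols were found for 51344 of 55822 identifiers (99.3% of counts).

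Counts were rounded. Genes were kept with filterByExpr, scaled with TMM and tested with the quasi-likelihood test of edgeR 4.0.16 (limma 3.58.1, R 4.3.3) with Benjamini-Hochberg adjustment over all 16266 genes tested and a threshold of 0.05. A gene low in controls can pass the filter through the puberulic acid libraries alone, which favours a call as higher. Besides the 4 genes, those named for which this holds include Sag, Guca1a, Il1rl1, Chil3 and Gm4064. A standard error is the size of the log2 fold change over the root of its F statistic. TMM factors lay between 0.827 and 0.848 for controls and between 1.17 and 1.26 for treated libraries. On simulated counts for this comparison (15233 genes tested), 93.0% of genes changed 2-fold and 100% of those changed 4-fold were recovered. The 200 changed genes were picked among those well above 0 in controls. These rates therefore do not cover genes near 0 in controls, nor a change in as many genes as found here. A fold against libraries all at 0 uses a floor of 3 counts per library; floors and intervals cover counting error only. Promoters are those of RefSeq GRCm38.p6, matched by symbol for all 4 genes; transcripts are those of GENCODE M21, on GRCm38.

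The members and lists were chosen with earlier results of these data known. Besides the members, genes named are, for each list, up to 5 with the largest log2 fold change among the called; for each member, the 3 with the most similar profile, numbered models left out; and Havcr1 and Krt20. Other genes are named as defining markers, neighbours or copies, and were chosen after their values were seen. Alternatives were median-of-ratios (RLE) and total-count scaling, no filter, DESeq2 1.42.0, a replicate block and leaving out each library. Python used pandas 2.3.3, scipy 1.17.1 and biopython 1.88. Results for some listed genes are not reported here.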

Additional observations from a re-analysis of the deposited data

Results flagged for a closer look

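Values of the 4 genes, the Rbmy copies, Chil3, Blnk and the genes of similar profile were searched within each group of 5 for an extreme library separated from the next by over 0.71 of the whole range. Of 40 such groups 6 held one, where chance gives about 2.

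In the controls, 4 of the 6 rest on 1 to 3 counts in a gene otherwise at 0: Rbmy in replicate 2 at 0.105 CPM, Chil4 in replicate 5 at 0.195 CPM, Gm3376 in replicate 5 at 0.195 CPM and BC061237 in replicate 1 at 0.0571 CPM. In the puberulic acid group, Gm3376 was highest in replicate 1 at 18.8 CPM (gap 0.726 of the range) and Ivl was highest in replicate 3 at 5.08 CPM (gap 0.917).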

How the results depend on the processing

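Of 342 values recomputed for 27 results, 318 stayed close to the reported value and 24 moved. Total-count scaling called 9179 genes higher and 2526 lower, against 5564 and 5058. With it 5 genes of V(D)J recombination and end joining were called higher, 1 Y-linked gene lower, 2 genes of glycoside hydrolase family 18 higher and 1 lower, and 1 other tissue-restricted gene lower, while the mean with puberulic acid was 75.8 CPM for Dntt and 25.5 CPM for Cnga3. With no filter, 2 genes of glycoside hydrolase family 18 (Chil3 and Chit1) and 2 other tissue-restricted genes were called higher, and 1 of the latter lower. RLE scaling moved none of these 27 results, and DESeq2 none of the counts of called genes among them, the only ones it was run on. The 27 leave out the lists of cell type markers, where both lost the call for Cd8b1 (adjusted p = 0.0511 with edgeR on RLE scaling and 0.067 with DESeq2), leaving 4 of the 9 lymphocyte markers tested.

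Same-numbered libraries are not stated to be paired. Their deviations from the group means correlated at -0.168 to 0.0200, and 0 of the 5 control libraries correlated best with their own number. With the replicate block 5416 genes were called higher and 4909 lower, 10111 of them shared with the 10622 reported, and 1 other tissue-restricted gene was called lower in place of 2. The block also called 2 lymphocyte markers higher in place of 5 (Cd4 and Trbc2), 0 male germ cell markers in place of 1, 6 macrophage markers in place of 5 (Adgre1 added) and 4 Y-linked genes lower in place of 3 (Kdm5d added).

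Across the fits without 1 library, 5103 to 5842 genes were called higher and 4881 to 5395 lower. The range was 2 to 4 higher for phototransduction and 0 to 1 lower for the list of Rbmx relatives and other splicing factors. It was 2 to 4 lower for Y-linked genes and 1 to 2 lower for other tissue-restricted genes. For glycoside hydrolase family 18 it was 1 to 2 higher and 1 to 2 lower. Mean levels with puberulic acid ran from 58.0 to 65.2 CPM for Dntt, 19.8 to 21.7 for Cnga3, 20.3 to 24.2 for Rbmy, 25.02 to 30.1 for Chil4 and 141.7 to 161.7 for the Rbmy sum. Without puberulic acid replicate 1, 0 of the 3 most similar genes of Dntt and of Chil4 remained. The control libraries held 0 to 3 counts of each of the 4 genes, so that their folds are bounds or have wide counting intervals.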
